A study of Mus musculus with 3 samples.

Results

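The antioxidant genes of the glutathione and thioredoxin systems were chosen by their symbols: the glutathione transferases (Gst), glutathione peroxidases (Gpx), peroxiredoxins (Prdx), thioredoxins and thioredoxin-domain genes (Txn), both subunits of glutamate-cysteine ligase (Gclc, Gclm) and glutathione reductase (Gsr). There were 52 of them among 22180 genes with a probe set of their own. RefSeq holds 59 protein-coding genes with such symbols. Of these, Gsta1, Gsta2, Gstm5, Gstz1 and Prdx1 had only probe sets shared with other symbols, and Prdx5, Prdx6 and Prdx6b were not analysed here.

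Glutathione and thioredoxin are the main thiol systems by which animal cells remove peroxides and keep protein cysteines reduced. Glutathione peroxidases and glutathione transferases spend glutathione on peroxides and on electrophiles, and glutathione reductase restores it with NADPH. Peroxiredoxins reduce peroxides and are in turn reduced by thioredoxin, which thioredoxin reductase restores, also with NADPH. Many of these genes are known targets of NRF2, a transcription factor held down by KEAP1 until oxidants or electrophiles release it. In neural precursors the redox state is known to bear on the choice between self-renewal and differentiation.

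The 3 arrays formed 1 group and were hybridised with total RNA of neurospheres, floating colonies of neural precursors, grown from the ventricular-subventricular zone (V-SVZ) that lines the lateral ventricles. The pups were wild type, of the CD1 stock, and aged postnatal day 8 (7 or 8 in the growth protocol). Cells were plated at 10 per microlitre and grown for 7 days in medium with 10 ng/ml FGF, 20 ng/ml EGF and the supplement B27, which as sold contains antioxidants, and pups were cultured apart. The labels number the arrays 1 to 3 without saying that each is a different pup, so the spread behind each p-value may be technical only. RNA came from whole cultures, in which fewer cells of a type and less RNA per cell cannot be told apart.

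Signals are RMA values on the log2 scale, and n = 3 arrays throughout. With no second group, a gene's signal was compared with what unexpressed genes give on the same array. That reference level is the 95th percentile over 1405 probe sets for receptors of smell and pheromones. It was 5.63, 5.53 and 5.71 on arrays 1, 2 and 3. The difference between a gene's signal and this level is called its margin, and a gene was called above the level at an adjusted p under 0.05 in a one-sided moderated test (limma, adjusted over all genes). Where a gene had the same signal on all 3 arrays, its margin varied only with the reference level (SD 0.090, as for Gpx4). The test used a spread shared by genes of like signal, so its p-values do not measure a gene's own spread. Because probes bind with unequal strength, single genes are not ranked by signal. Margins set side by side, as medians over lists or in figures, are descriptive only. Of all 22180 genes 13104 were called (59.1%), as were 62.7% of the 20734 genes that were neither members nor receptors and 3.87% of the receptor genes. Markers of the labelled cells were present, with 5 of 5 neural stem cell markers above the level (Sox2 averaged 11.39 ± 0.073, SD), as well as 5 of 5 astrocyte and 5 of 5 oligodendrocyte precursor markers, and 4 of 5 neuroblast and neuron markers.

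Most of the antioxidant genes gave a signal above the reference level. Of the 52 members 40 (76.9%) were above it, against 59.1% of all genes tested, and 12 were not. Their median margin over all 52 was 2.92 log2 units, against 1.05 for the other genes. By family, 3 of 3 genes of glutathione synthesis and reduction, 3 of 3 peroxiredoxins and 5 of 5 thioredoxins and thioredoxin reductases were above. So were 11 of 13 thioredoxin-domain genes, 13 of 19 glutathione transferases and 5 of 9 glutathione peroxidases. The 12 genes not above came from 3 families: Gpx2, its pseudogene Gpx2-ps1, Gpx5 and Gpx6, then Txndc2 and Txndc8, and the transferases Gsta3, Gstm2, Gstm3, Gstp3, Gstt2 and Gstt4. Families are small and were compared by counts, with no test.

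**Figure D1:**
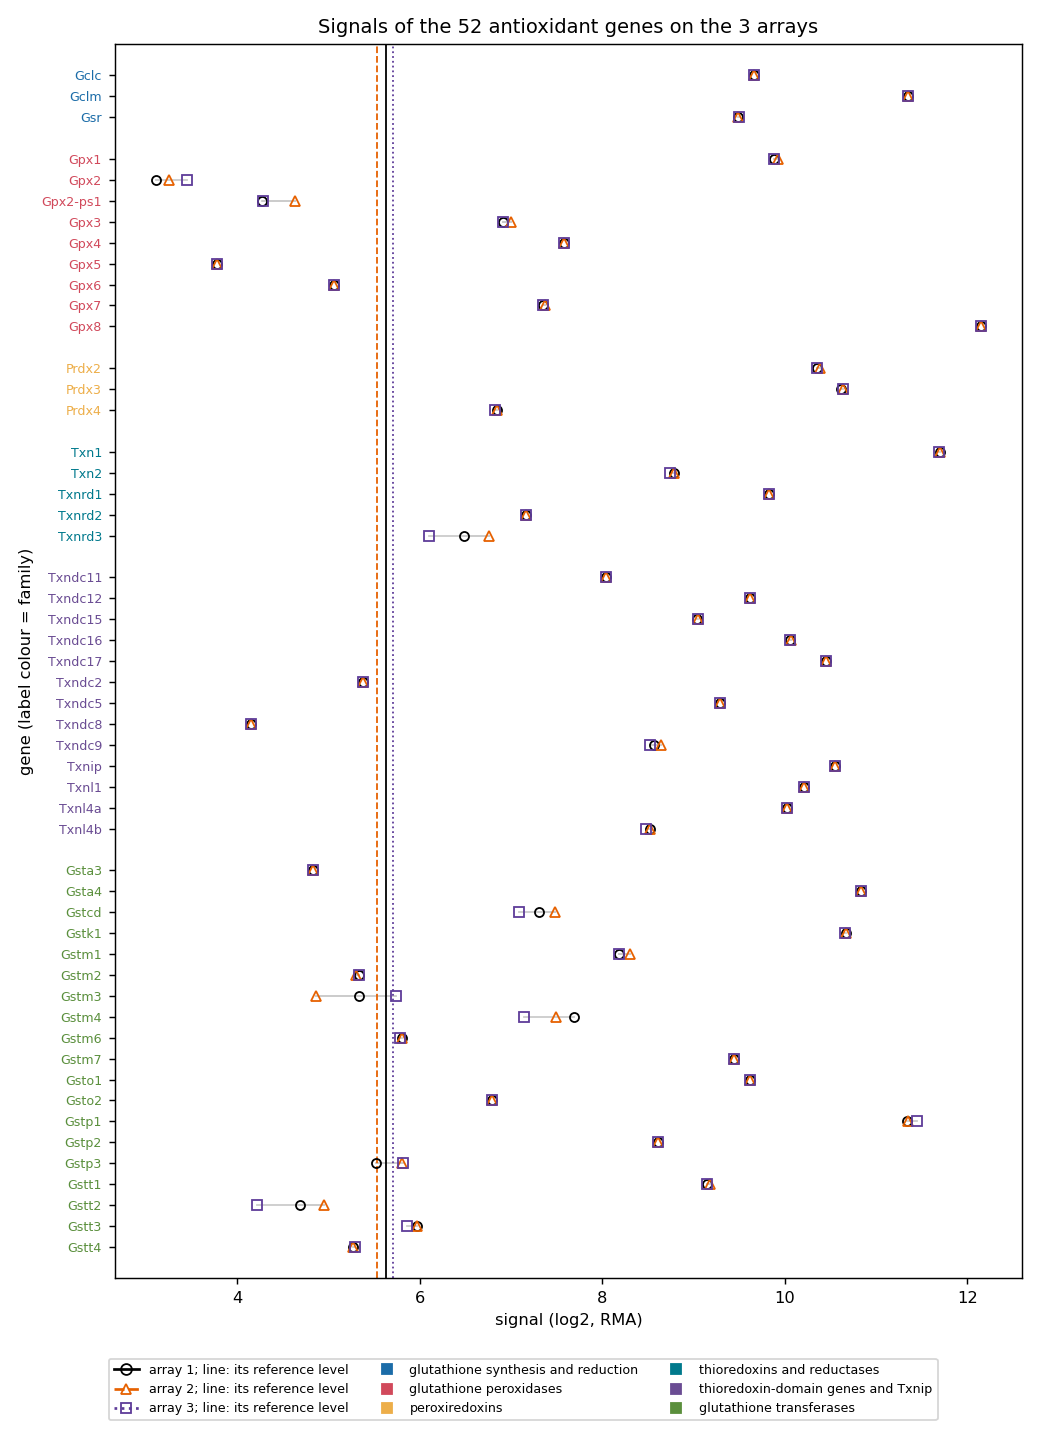
Signal (log2, RMA) of each of the 52 antioxidant genes on arrays 1 (circles), 2 (triangles) and 3 (squares), grouped by family, with each array's reference level as a vertical line. For most genes the 3 symbols coincide, and 40 genes are called above the level.

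**Figure D2:**
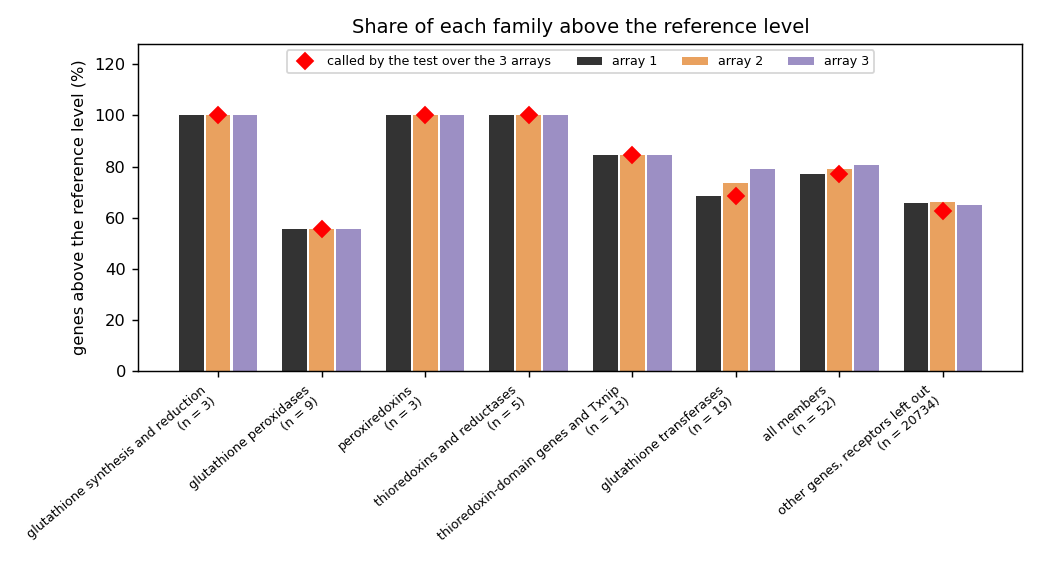
Percentage of each family above the reference level on each array (bars) and called by the test over the 3 arrays (diamonds), for 6 families, all 52 members and 20734 other genes, with n under each name. The glutathione peroxidases reach 5 of 9 on each array, and the transferases 13, 14 and 15 of 19.

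The enzymes that make and recycle glutathione were all above the level. Gclc, the catalytic subunit of glutamate-cysteine ligase, had 9.66 on each array. Gclm, its modifier subunit, had 11.35 on each array. Gsr had 9.49, 9.49 and 9.50. None of these 3 genes varied between arrays by more than 0.0098 log2 units, and the margin of each exceeded 3.8 on average (Gsr 3.87, Gclc 4.03, Gclm 5.72). Glutathione synthetase (Gss), which adds glycine in the second step of synthesis, was also above, at 6.83 on each array.

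The promoter of Gclm is shown because it holds the core letters of the antioxidant response element, TGACNNNGC, to which NRF2 binds with small MAF proteins. The line gives the 150 bases before the start of the gene (chr3:122245407-122245556, plus strand, RefSeq on GRCm38.p6). Capitals mark the match, which lies on the opposite strand 134 to 126 bases before the start.
Gclm: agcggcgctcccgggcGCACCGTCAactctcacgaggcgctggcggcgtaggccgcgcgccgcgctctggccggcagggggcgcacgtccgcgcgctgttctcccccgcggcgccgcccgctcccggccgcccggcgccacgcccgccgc

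Of the glutathione peroxidases 5 of 9 were above the level, near the 59.1% of all genes. Gpx1, the cytosolic selenoenzyme, had 9.88, 9.93 and 9.88. Gpx4, which reduces lipid hydroperoxides in membranes and holds back ferroptosis, had 7.58 on each array. Gpx3, the secreted plasma form, had 6.92, 7.01 and 6.92. The members of the endoplasmic reticulum were also above, Gpx7 with 7.35, 7.37 and 7.35 and Gpx8 with 12.15 on each array. Each of these 5 genes exceeded the reference level on all 3 arrays, with mean margins between 1.32 (Gpx3) and 6.53 (Gpx8).

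Gpx2, the form of the gut lining, had 3.11, 3.25 and 3.45. Gpx5, the form of the epididymis, had 3.78 on each array. Gpx6, known from the olfactory epithelium, had 5.06 on each array. All 3 lay under the level on every array, with mean margins of -2.35, -1.84 and -0.57, as did the pseudogene Gpx2-ps1 at 4.27, 4.63 and 4.29.

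Promoters of 2 peroxidase genes above the level and 2 not above are shown for their content of CpG, the dinucleotide that is dense in promoters of broadly expressed genes and scarce in the rest of the genome. Each line gives the 150 bases before the start of the gene from RefSeq on GRCm38.p6, with every CpG in capitals. They lie at chr13:113046389-113046538 (minus strand, Gpx8), chr9:108338930-108339079 (plus strand, Gpx1), chr12:76795555-76795704 (minus strand, Gpx2) and chr13:21292687-21292836 (minus strand, Gpx5). The stretches hold 6 CpGs in Gpx8 and 5 in Gpx1, against 0 in Gpx2 and 1 in Gpx5.
Gpx8: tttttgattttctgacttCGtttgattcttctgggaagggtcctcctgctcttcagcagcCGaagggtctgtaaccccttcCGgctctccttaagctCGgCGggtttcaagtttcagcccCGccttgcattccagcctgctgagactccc
Gpx1: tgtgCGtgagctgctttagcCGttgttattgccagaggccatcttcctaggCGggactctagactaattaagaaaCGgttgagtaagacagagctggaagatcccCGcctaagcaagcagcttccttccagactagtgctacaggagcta
Gpx2: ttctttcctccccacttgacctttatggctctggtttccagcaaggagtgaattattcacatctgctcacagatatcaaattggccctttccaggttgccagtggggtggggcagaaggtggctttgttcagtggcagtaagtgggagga
Gpx5: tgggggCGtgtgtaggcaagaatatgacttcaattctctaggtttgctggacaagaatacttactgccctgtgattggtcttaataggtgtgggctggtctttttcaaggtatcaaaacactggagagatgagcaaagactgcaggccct

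Selenium-dependent peroxidases and thioredoxin reductases need a dedicated machinery to insert selenocysteine. In a list of 10 genes of selenoprotein synthesis and of selenoproteins outside these families, 10 were above the level, against 59.1% of all genes, including the selenophosphate synthetase Sephs2 (7.24, 7.62 and 7.22), the elongation factor Eefsec (8.81 on each array) and Secisbp2 (7.98, 8.21 and 7.98), which binds the selenocysteine signal in the mRNA. Sephs2 and Secisbp2 were highest on array 2 and varied more than Eefsec.

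Every peroxiredoxin measured on its own was above the level. Prdx2, the cytosolic form, had 10.35, 10.39 and 10.35. Prdx3, the mitochondrial form, had 10.61, 10.64 and 10.64. Prdx4, the form of the endoplasmic reticulum, had 6.84, 6.84 and 6.83. Prdx2 is also abundant in red blood cells, whose markers Slc4a1 (5.71 ± 0.18) and Klf1 (5.63 ± 0.031) were not above the level, and the part of such cells in the Prdx2 signal was not tested. Srxn1, sulfiredoxin, which repairs overoxidised peroxiredoxins, was above at 7.82 on each array. With the other reference genes (bitter taste receptors, defensins and proteins of hair) Prdx4 kept a margin of 0.40 and was no longer called (limma adjusted p = 0.136), and Gpx3 a margin of 0.51 (limma adjusted p = 0.06).

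Both thioredoxins and the 3 reductases were above. Txn1, the cytosolic thioredoxin, had 11.70, 11.70 and 11.69, and Txn2, the mitochondrial form, 8.79, 8.79 and 8.74. Of the reductases, Txnrd1 of the cytosol had 9.83 on each array and Txnrd2 of mitochondria 7.17 on each array. Txnrd3, a thioredoxin and glutathione reductase best known from testis, had 6.49, 6.76 and 6.11. Its signal was highest on array 2 and lowest on array 3. Its range of 0.65 was wider than that of 98.7% of genes above the level, which were not matched for signal. Its margin was 0.05 with the 99th percentile of the receptors as the level, where it was no longer called (limma adjusted p = 0.823, 0.971 with the other reference genes).

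One of the RefSeq windows of Txnrd1 holds the same core letters as Gclm, and its 150 bases before the start are shown with the match in capitals (chr10:82859056-82859205, plus strand, GRCm38.p6). The match is again on the opposite strand, 92 to 84 bases before the start.
Txnrd1: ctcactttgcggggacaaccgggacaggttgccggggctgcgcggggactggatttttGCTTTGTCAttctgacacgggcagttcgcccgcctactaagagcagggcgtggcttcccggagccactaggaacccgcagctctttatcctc

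Thioredoxin-domain genes carry the thioredoxin fold in proteins of other compartments and uses. Txnip, which binds thioredoxin and inhibits it, had 10.55 on each array. Genes of the endoplasmic reticulum were above the level, among them Txndc5 (9.29 on each array), a disulfide isomerase, and Txndc12 (9.61 on each array). Txndc17, a cytosolic thioredoxin-like oxidoreductase, had 10.45 and Txnl1 10.21 on each array. Txnl4a, a component of the spliceosome, had 10.02 on each array, and Txnl4b had 8.53, 8.53 and 8.48. The remaining genes above were Txndc9 (8.58 ± 0.060), Txndc11 (8.04), Txndc15 (9.05 ± 0.0062) and Txndc16 (10.06 ± 0.011). The exceptions were Txndc2 (5.38) and Txndc8 (4.16), thioredoxins of sperm and testis, each with the same value on all 3 arrays and under the level on each.

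The glutathione transferases, enzymes that couple glutathione to electrophiles, were the largest family, with 13 of 19 above the level, against 59.1% of all genes. Both omega genes, the kappa gene and Gstcd were above, with 4 of 6 mu genes, 2 of 3 pi genes, 2 of 4 theta genes and 1 of 2 alpha genes. Gsta4, which clears the lipid peroxidation product 4-hydroxynonenal, had 10.84 on each array, whereas Gsta3 had 4.84 on each array and was not above. Gstk1, the kappa transferase of mitochondria and peroxisomes, had 10.67, 10.67 and 10.66. Gsto1 had 9.62 and Gsto2 6.80 on each array. Gstcd, named for its transferase-like domain, had 7.31, 7.48 and 7.09.

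In the mu class, Gstm7 had 9.45 on each array and Gstm1 had 8.19, 8.31 and 8.19. Gstm1 is a known astrocyte protein, and the 5 astrocyte markers were all above, among them Gfap at 12.91 on each array. The part of astrocytes in the Gstm1 signal was not tested. Gstm4 had 7.70, 7.50 and 7.14, lowest on array 3, with a range of 0.55. Gstm2 (5.33, 5.30 and 5.33) was under the level on every array. Gstm3 (5.34, 4.86 and 5.74) exceeded it only on array 3, by a margin of 0.03.

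Gstm6 lay close to the level, with 5.81, 5.81 and 5.78 and a mean margin of 0.17 (limma adjusted p = 0.0207). It was no longer called without replicate 1 (limma adjusted p = 0.227) or without replicate 2 (0.121), and lay under the level with the 99th percentile (margin -0.60).

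Promoters of the neighbouring genes Gstm1 and Gstm2 are shown in the same way as those of the peroxidases (chr3:108017974-108018123 for Gstm1 and chr3:107986421-107986570 for Gstm2, both minus strand, GRCm38.p6). The stretch holds 10 CpGs in Gstm1, which was above the level, and 2 in Gstm2, which was not. Gstm1 had 2 RefSeq windows, and its stretch belongs to the one with the higher ratio of observed to expected CpGs. Gstm2 had only 1 window, so the 2 stretches were not chosen alike. The ratios were 0.57 for Gstm1 and 0.16 for Gstm2, both under the threshold of 0.6 used below for CpG-rich windows.
Gstm1: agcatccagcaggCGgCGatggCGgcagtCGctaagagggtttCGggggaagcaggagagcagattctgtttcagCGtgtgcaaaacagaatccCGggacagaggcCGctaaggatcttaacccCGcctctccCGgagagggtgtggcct
Gstm2: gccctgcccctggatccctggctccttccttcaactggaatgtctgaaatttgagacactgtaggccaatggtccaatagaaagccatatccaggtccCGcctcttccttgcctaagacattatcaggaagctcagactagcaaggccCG

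Of the pi class, Gstp1 had 11.34, 11.35 and 11.45 and Gstp2 8.61 on each array, both above. Gstp3 had 5.53, 5.81 and 5.81, over the level on arrays 2 and 3 but not called (margin 0.09, limma adjusted p = 0.195). Gstp1 is also used as a marker of oligodendrocytes. Of the mature oligodendrocyte markers, Mog (6.06) and Mag (7.47 ± 0.057) were above the level and Mobp (5.58 ± 0.068), Opalin (5.31) and Ermn (4.52 ± 0.086) were not, so 2 of 5, and their part in the Gstp1 signal was not tested.

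Of the theta genes 2 of 4 were above, against 59.1% of all genes. Gstt1 had 9.15, 9.18 and 9.15, far above the level. Gstt3 had 5.98, 5.98 and 5.86, close over it (margin 0.31, limma adjusted p = 5.14e-05). Gstt3 was not called without replicate 1 (limma adjusted p = 0.0524) and lay under the level with the 99th percentile (margin -0.46). Gstt2 (4.69, 4.96 and 4.22) and Gstt4 (5.27, 5.27 and 5.29) were under the level on every array.

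Many of these genes lie in tandem clusters, so that many neighbours on the chromosome are paralogs. Among the protein-coding genes of RefSeq, 13 pairs of adjacent genes had both partners among the members. Calls differed in 5 pairs: Gstm1 above beside Gstm2 not above, Gstm6 beside Gstm3, Gstt1 beside Gstt4, Gstp2 beside Gstp3 and Txn1 beside Txndc8. Gstm6 (mean margin 0.17) and Gstp3 (0.09) lay close to the level, so the difference within their pairs is uncertain. The share of differing calls over all adjacent genes was not computed, and 59.1% of all genes were called. Signals of close paralogs such as the mu and pi genes are uncertain in so far as probes of one may also bind transcripts of another, which the table of probe set values does not show.

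The promoters were then compared over all members. RefSeq windows of 300 bases (250 before and 50 after the gene start) were at hand for 45 of the 52 members, and the ratio of observed to expected CpGs was taken from the window with the highest ratio where a gene had several. At a ratio of at least 0.6, 25 of the 35 members above the level with a window counted as CpG-rich, against 0 of the 10 members not above. The median ratio was 0.70 for members above and 0.19 for members not above, and the highest ratio among those not above was 0.30 (Txndc8). Other genes showed the same direction, with 75.7% CpG-rich among those above and 16.7% among those not above. Read the other way, 25 of 25 CpG-rich members were above the level and 10 of 20 CpG-poor ones, against 89.3% and 34.9% of other genes.

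By family, all 5 thioredoxin and reductase windows, all 3 peroxiredoxin windows and 9 of 11 thioredoxin-domain windows were CpG-rich. The only window of glutathione synthesis and reduction, that of Gclm, was CpG-rich too. So were 4 of 8 peroxidase windows and 3 of 17 transferase windows (Gstcd, Gsto2 and Gstp1). Set beside these counts, 38.4% of all genes with a RefSeq window and 55.6% of the members with one were CpG-rich. Of the 14 CpG-poor transferase genes 9 were above the level, against 1 (Gpx3) of the 6 CpG-poor members outside that family. Gstt1 (ratio 0.38), Gstm7 (0.35) and Gstp2 (0.47) were examples of transferases clearly above the level with a CpG-poor window, while Gstk1 (0.59), Gstm4 (0.59), Gsto1 (0.58) and Gstm1 (0.57) lay just under the threshold. Genes are not independent replicates, and these shares describe the lists without a test.

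**Figure D3:**
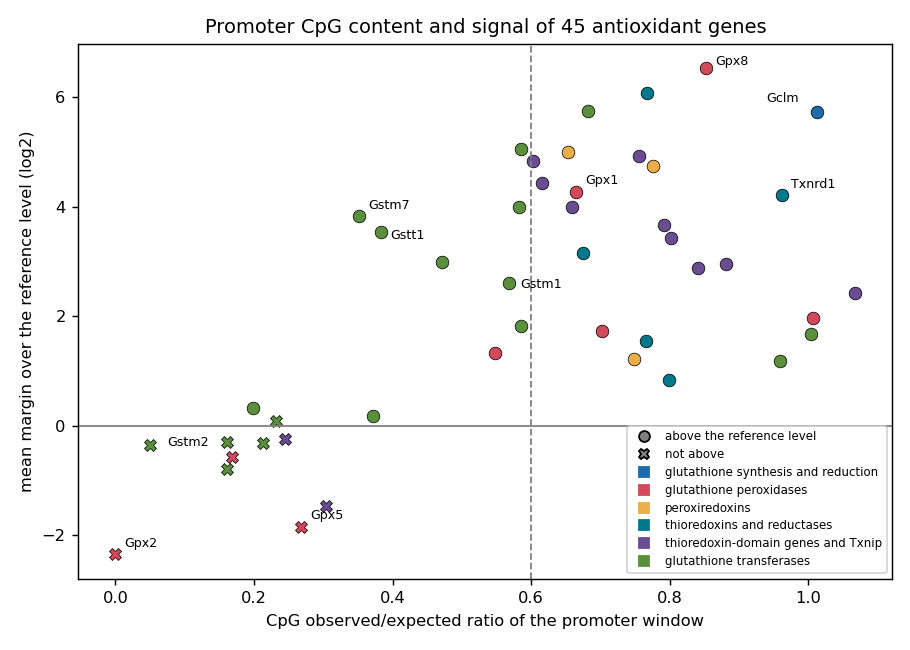
Ratio of observed to expected CpGs in the promoter window (horizontal) and mean margin over the reference level in log2 units (vertical) for the 45 members with a window, coloured by family. The 10 genes not above the level (crosses) all lie at ratios up to 0.304, and every gene right of the dashed line at 0.6 is above it.

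The core letters TGACNNNGC, searched on both strands, were found in windows of 5 of 35 members above the level (14.3%), namely Gclm, Txnrd1, Txndc5, Txndc11 and Gstm7, and in 2 of 10 not above, Gsta3 and Txndc2. Over all genes with a window it was found in 3781 of 27025. These counts concern only the letters within the windows.

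Other genes of the pathway, in lists of known members, were mostly above the level, 59 of the 63 measured, against 59.1% of all genes. Of the NRF2 regulators 9 of 9 were above: Nfe2l2 itself had 11.19, Keap1 7.06 and the ligase subunit Cul3 11.37 on each array, and the repressor Bach1 9.40 ± 0.040. Of other NRF2 target genes 9 of the 9 measured were above, and G6pdx and Tkt were not measured. The cystine transporter Slc7a11 had 10.84, 10.84 and 10.79. The quinone reductase Nqo1 had 6.69, 6.88 and 6.69, and the haem oxygenase Hmox1 8.29, 8.31 and 8.23. With the 99th percentile as the level, 7 of 9 regulators and 7 of 9 of these targets were above.

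Glutathione supply, turnover and export had 13 of 14 genes above, the exception being the gamma-glutamyltransferase Ggt5 (5.71, 5.47 and 5.76). Set beside this count and those that follow, 59.1% of all genes were above. The glutaredoxin and methionine sulfoxide reductase list had 9 of 9 above, and the list with superoxide dismutases and catalase 7 of 7, including Sod1 (12.30 on each array), Sod2 (11.51, 11.54 and 11.51) and Cat (12.10 on each array). The membrane-bound transferase family called MAPEG had 3 of 6 genes above, near the share of all genes: Mgst1 (9.03), Mgst3 (7.09) and Ptges (6.69). Mgst2 (4.87), Ltc4s (5.70) and Alox5ap (5.39 ± 0.14) were not called, though Ltc4s had a mean margin of 0.07. Alox5ap and Ltc4s serve leukotriene synthesis in blood cells. Of the markers of ependymal, microglial, endothelial, choroid plexus, red blood and liver cells 7 of 28 were above the level: 3 of 6 for microglia, 1 of 5 each for ependymal cells, endothelium, choroid plexus and liver, and 0 of 2 for red blood cells. With the 99th percentile 1 of the 28 was above, an ependymal marker, and with the 90th 16.

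Differences between the 3 arrays were small for most members. The signal was exactly equal on all 3 arrays for 20 members, on 2 arrays for 22, and different on each for 10. Among members above the level 37.5% were equal on all 3 arrays, against 37.3% of other genes above, so an SD of 0 here is a property of the deposited values and understates the true spread. The median range between arrays was 0.0088 log2 units for members above and 0.030 for other genes above. These lists were not matched for signal, and whether the members vary less was not tested. Among members above, Txnrd3 (0.65) and Gstm4 (0.55) had the widest ranges and Gstcd (0.39) followed.

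Equal values also occurred between genes. On arrays 1, 2 and 3, 20946, 17860 and 18661 of the 41345 deposited probe sets held a value that another probe set of the same array held to the last digit. Among members above the level this was so for 19, 15 and 12 of 40, and among members not above for 9, 7 and 7 of 12. Gpx4 shared its value with others in a set of 16, 11 and 14 probe sets, and Gpx2 lay on array 1 at a value held by 173. Of the genes called close to the level, Gstt3 lay on arrays 1 and 2 at values held by 57 and 43 probe sets. Gstm6 lay there at values held by 28 and 49. Of the members above with the widest ranges, Txnrd3 and Gstcd lay on array 1 at values held by 29 and 18. Gstm4 lay on array 2 at a value held by 12. Genes such as Gclm, Gpx1, Gpx8, Prdx2, Prdx3 and Txn1 had values of their own on every array. No label names the step that produced the repeated values. Signals that repeat in this way are coarser than their decimals.

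The direction of the differences between arrays was compared with that of other genes. Of the 25 members above the level whose arrays were not all equal, array 2 alone was highest in 12 and array 3 alone was lowest in 12. For the other genes above with any difference, array 2 alone was highest in 4477 of 8163 and array 3 alone lowest in 4300. A test of each gene's variance between arrays against the spread usual at its signal (limma, adjusted over genes above the level) called 0 of 40 members and 0 of 13104 genes (0%), and 0 genes at an unadjusted p under 0.05. Exactly equal values leave that test without a usable prior (0.311 prior degrees of freedom), so it does not show that the arrays are alike.

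**Figure D4:**
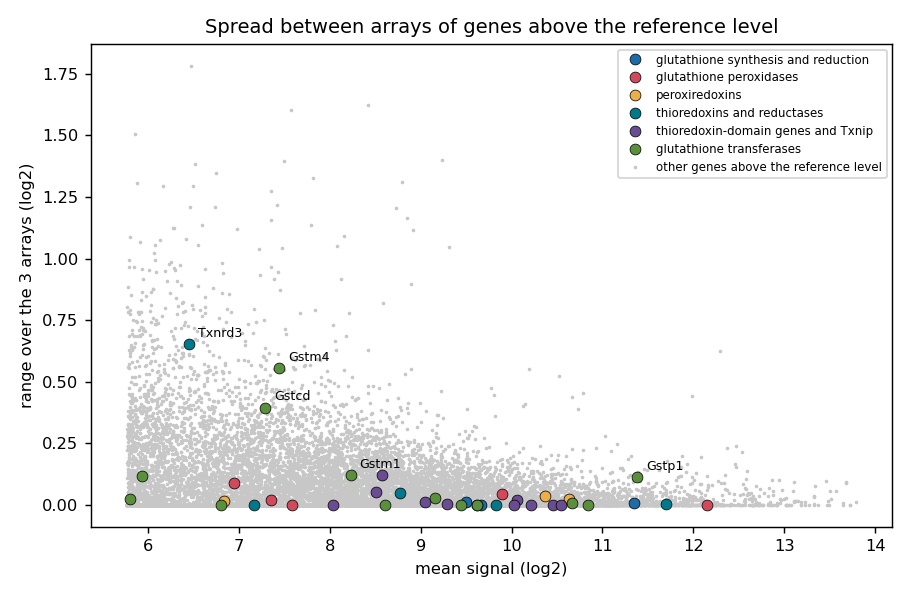
Range over the 3 arrays (vertical, log2) against mean signal (horizontal, log2) for the 40 members above the reference level, coloured by family, and for other genes above it (grey). Txnrd3, Gstm4 and Gstcd have the widest ranges among the members, at 0.65, 0.55 and 0.39.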

How the data were processed

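Gene expression was measured on 3 arrays of 1 group. The deposited values are log2 signals for 41345 probe sets, made by the authors with RMA, per the submitters' processing notes (version and options not given in the sources used here). RMA corrects background, normalises between arrays and summarises probes. Probe sets were named from the platform's annotation table: 23521 had 1 symbol, 1814 several and 16010 none, and only the first kind were named. Each of the 52 members had 1 such probe set, and its symbol matched RefSeq by gene ID for all 52. Members and lists were chosen with earlier results of these data known. The promoter comparison was chosen after the values were seen, as were the sequences shown.

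Equal values means equal in all digits deposited. Detection used limma 3.58.1 in R 4.3.3: an intercept fitted to margins, eBayes with an intensity trend, and Benjamini-Hochberg adjustment over 22180 genes. The prior degrees of freedom were infinite, so genes of like signal shared a spread. The variance test divided residual by prior variance. Both were tested on simulated data, and the variance test also on the deposited values with known changes added. The check on deposited values showed the variance test to be void on values with exact ties. Named members were all 52, and up to 6 above and 6 not above per list. Signals of single arrays are given for the members the text turns on. No genome was used. RefSeq promoter windows (GRCm38.p6) were matched by symbol. Alternatives changed the reference level, reference genes, probe set choice, scaling, model and low-signal filter, or left out each replicate. Python 3.11.15 and matplotlib 3.10.9 drew the figures. Precision is limited by the number of arrays, n = 3.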

Additional observations from a re-analysis of the deposited data

Results flagged for a closer look

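Probe sets that carry a member's symbol together with another were outside every comparison. There were 10, of which 8 exceeded the reference level on all 3 arrays, and this signal above the level in unused data is why they are listed. No test was run on them, and none can be assigned to a single gene. A probe set annotated to Prdx1 and Gm21399 averaged 11.67 ± 0.080 (SD, n = 3) and another with the same symbols 5.90 ± 0.081, while a set that also carries AV051173 averaged 4.64 ± 0.079, under the level on every array. Prdx1 encodes a cytosolic peroxiredoxin that has no probe set of its own here. The set shared by Gstm5 and 4933431E20Rik had 11.17 on each array, that of Gstz1 and Pomt2 10.62 and that of Gstp1 and Gstp2 9.82. A set of Txnip and Gm15441 averaged 6.53 ± 0.15. Among the alpha transferases, a set of Gsta1, Gm3776 and Gsta2 averaged 6.51 ± 0.28 and one that also carries Gm10639 had 5.93 on each array. A set of Gsta2, Gsta1 and Gm10639 had 3.80 on each array, under the level.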

How the results depend on the processing

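Of 52 members, 34 were above the reference level under the main setting and all 13 alternatives, and 11 under none. The number above was 34 with the other reference genes (65.4%, against 46.4% of other genes), 36 with the 99th percentile (69.2%, against 47.9%) and 41 with the 90th (78.8%, against 70.6%), the gain being Gstp3 (margin 0.45). It was 38 without replicate 1, 39 without replicate 2 and 40 without replicate 3, and 40 under each of the other 7. Calls ended for 6 members in 13 cases: Gstm6 and Gstt3 as given in the report, Txnrd3 and Gsto2 at the stricter levels (the 99th percentile and the other reference genes), and Gpx3 and Prdx4 with the other reference genes. Signals under the stricter levels had negative margins for Gstm6 (-0.60 and -0.64) and Gstt3 (-0.46 and -0.50). Without each replicate in turn the margin of Gstm6 was between 0.12 and 0.23. Family counts and the pathway count stayed within 1.5 times under all settings. The pathway count still fell from 59 of 63 to 49 with the 99th percentile and to 48 with the other reference genes. The markers of ependymal, microglial, endothelial, choroid plexus, red blood and liver cells above the level moved from 7 of 28 to 16 with the 90th percentile and to 1 with the 99th percentile and with the other reference genes; the cause was not tested. The variance test called 0 members under its 10 alternatives. After median centring 2 members, Gstm4 and Txnrd3, had an unadjusted p under 0.05, and after quantile normalisation 3, with Gstp1. CpG-rich windows numbered 22 of 35 members above with the first listed window and 30 at a ratio of 0.5, and 0 of 10 members not above under both (chosen after seeing the data). No paired analysis was possible because there is 1 group.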
